A study of Homo sapiens with 16 samples.

Results

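The genes described here are 47 cell cycle genes that act in DNA replication and mitosis, taken by gene name from a list chosen for their function and found in full among the 60357 genes of the in vitro count tables. They comprise 12 genes of origin licensing, 5 of DNA and nucleotide synthesis, 8 cyclins, cyclin-dependent kinases and their phosphatase CDC25A, 4 transcription factors, 2 of the replication checkpoint and chromatin, 13 of the spindle, centromere and chromosome structure, and 3 of the anaphase-promoting complex. The origin licensing group also counts CDC45, which acts when the loaded helicase is activated. The list names functions and uses no measured value as a threshold. All 47 passed the filter on low counts, which asks for at least 600 reads in total.

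RNA was sequenced from Kasumi-1 and SKNO-1, human acute myeloid leukaemia cell lines that both carry the t(8;21) translocation and express the fusion RUNX1/ETO. Cells were exposed for 24 h to 2 µg/ml lipid nanoparticles (LNPs), washed and harvested on day 3, and SKNO-1 was grown with GM-CSF. The particles carried either siRE-mod, a chemically modified siRNA against the fusion site, or the modified mismatch control siMM-mod. There are 3 in vitro libraries for each of the 4 combinations of line and siRNA, and every group, controls included, received LNPs. A further 4 libraries hold Kasumi-1 cells from mice of the survival experiment, 2 treated with siMM-mod and 2 with siRE-mod LNPs. Nothing in the labels says that replicates came from separate cultures, so p-values measure only the spread between these libraries, which may be technical.

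DNA replication is licensed in G1, when ORC, CDC6 and CDT1 load the MCM helicase at origins, and it begins when cyclin-dependent kinases activate that helicase. E2F factors drive the genes of the G1/S transition, while FOXM1 and B-MYB drive those of G2 and mitosis. RNA of both gene classes is plentiful in dividing cells and falls when cells leave the cycle, and for that reason genes such as MKI67 and TOP2A are read as marks of proliferation in leukaemia.

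The libraries held 60559466 to 147990959 counts on genes. The siRNA label did not order the libraries by RUNX1T1 (ETO), whose reads include the fusion transcript. It lay at 296, 92.7 and 161 normalized CPM (counts scaled to library size with TMM factors) in Kasumi-1 siMM-mod replicates 1, 2 and 3 and at 44.3, 159 and 37.2 in Kasumi-1 siRE-mod. The SKNO-1 libraries held 329, 297 and 127 CPM (siMM-mod) and 123, 164 and 40.4 CPM (siRE-mod), so the labelled groups overlapped in both lines. By label its log2 fold change was −1.19 ± 0.71 (SE) in Kasumi-1 and −1.19 ± 0.57 in SKNO-1 (edgeR adjusted p = 0.392 and 0.491). Whether single libraries carry the right line and siRNA label was not tested, and every comparison by line or by label below depends on it. CD34, a marker of stem and progenitor cells, was at 0.107 to 0.626 CPM in 6 libraries and at 117 to 420.2 CPM in the other 6, and each of these sets holds libraries of both lines and both labels. IL5RA, an eosinophil and basophil receptor, ran the other way, at 36.2 to 67.9 CPM in the CD34-silent and 0 to 0.178 CPM in the CD34-expressing libraries. Of the other eosinophil genes, EPX and CLC were also higher in every CD34-silent library, while PRG2 overlapped, at 6.17 to 88.8 against 0.217 to 193 CPM. MPO, a granule enzyme of myeloid cells, was at 1779.9 to 5741 CPM in the silent and 10415 to 22627 CPM in the expressing libraries. The granule genes ELANE, AZU1 and CTSG were also lower in every silent library, while LYZ overlapped, at 16.4 to 27.8 against 13.4 to 23.9 CPM. Of the other stem and progenitor markers, KIT was lower in every silent library, at 96.7 to 515 against 680 to 997 CPM. PROM1 was at 0 CPM in every library and MEIS1 at most at 0.178 CPM. Of the monocyte markers CD14 and CD68 were under 0.1 CPM in every library, ITGAM was at 0.231 to 3.73 CPM, and CSF1R was at 0.615 to 1.54 CPM in the silent and 8.05 to 24.9 CPM in the expressing libraries. The closest pair with different labels, SKNO-1 siMM-mod 3 and SKNO-1 siRE-mod 1, had a Pearson r of 0.998 over log2 CPM of all genes kept. Kasumi-1 siRE-mod 3 and SKNO-1 siRE-mod 3, labelled as different lines, had an r of 0.996. SKNO-1 siRE-mod 1 and SKNO-1 siRE-mod 3, of the same line and siRNA label, had an r of 0.889.

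Values are therefore listed by library as well as by label. In each list the CD34-silent libraries come first, with Kasumi-1 siRE-mod 3, SKNO-1 siRE-mod 3 and Kasumi-1 siRE-mod 1 (RUNX1T1 37.2 to 44.3 CPM), then Kasumi-1 siRE-mod 2, Kasumi-1 siMM-mod 3 and SKNO-1 siRE-mod 2 (159 to 164 CPM). The CD34-expressing libraries follow, with Kasumi-1 siMM-mod 2, SKNO-1 siRE-mod 1 and SKNO-1 siMM-mod 3 (92.7 to 127 CPM), then Kasumi-1 siMM-mod 1, SKNO-1 siMM-mod 2 and SKNO-1 siMM-mod 1 (296 to 329 CPM). "Lower-RUNX1T1" and "higher-RUNX1T1" below mean these places within a CD34 set. They are read from the data, are not groups of the study, say nothing of the siRNA a library received, and carry no mean and no test. The 3 libraries with the least RUNX1T1 are all CD34-silent and the 3 with the most are all CD34-expressing. Where the ends of the whole RUNX1T1 range are compared below, RUNX1T1 level and CD34 set therefore cannot be told apart.

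Taken as a whole, the cell cycle genes moved little but moved together. The highest of the 12 libraries exceeded the lowest by 1.41-fold (TPX2) to 3.27-fold (UHRF1), with a median of 2.05 over the 47 genes, against 2.63 over the 15437 genes that had reads in every library. Those genes reach down to 600 reads in total, whereas each of the 47 had at least 16224 (E2F2). The part of read number in this difference was not tested. The median Pearson r of log2(CPM + 1) between 2 of the 47 genes was 0.59 over the 12 libraries, 0.85 over the 6 CD34-silent and 0.80 over the 6 CD34-expressing libraries, while the median over all gene pairs lay within 0.01 of 0. These r describe the same few libraries with their shared depth and scaling.

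Their summed level ran in opposite orders in the CD34 sets. Among the CD34-silent libraries the sum was 6508, 7146 and 5942 CPM in the lower-RUNX1T1 libraries and 5595, 5552 and 4389.9 CPM in the higher ones. Among the CD34-expressing libraries it was 6510.0, 5357 and 5348 CPM in the lower-RUNX1T1 libraries against 7057, 7366 and 7062 CPM in the higher ones. The smallest sum was that of SKNO-1 siRE-mod 2. In bulk RNA, fewer cells in cycle and less RNA per cell cannot be told apart.

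Gene by gene, 32 of the 47 were higher in all 3 lower-RUNX1T1 libraries of the CD34-silent set than in the other 3, an order found in 21.7% of all 15863 genes tested. The reverse order was met by 0 of the 47 (21.6% of all genes), and 15 overlapped. In the CD34-expressing set 27 of the 47 were lower in all 3 lower-RUNX1T1 libraries (20.2% of all genes), only CDK2 was higher (18% of all genes) and 19 overlapped. Both orders at once, higher in the silent and lower in the expressing set, were met by 17 genes, against 3.89% of all genes. They are AURKA, CCNA2, CCNB1, CCNE2, CDC25A, CDC45, CDC6, CDK1, CHEK1, GMNN, MCM3, MCM4, MKI67, PCNA, PLK1, RRM2 and UHRF1. Without Kasumi-1 siMM-mod 2 the count of genes lower in the expressing set was 41, and the share of all genes was 37.8%.

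**Figure D1:**
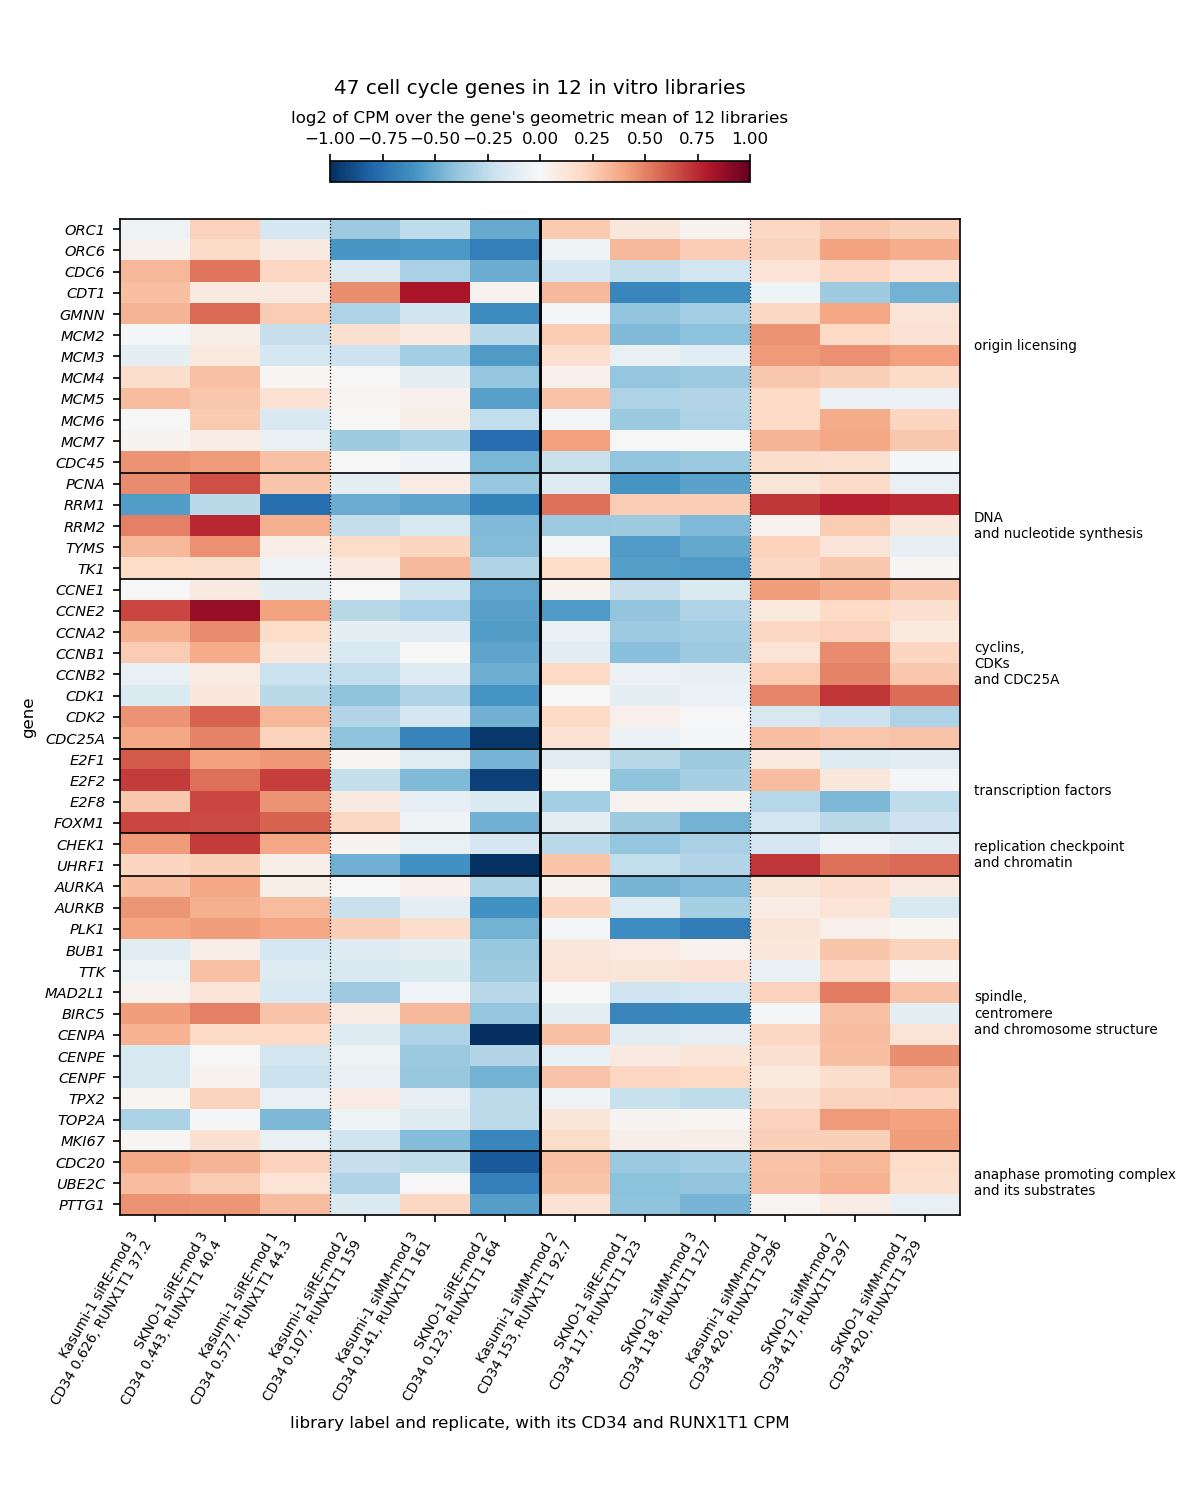
Each row is a gene and each column a library, in the order given in the text, and colour is the log2 ratio of normalized CPM to the gene's geometric mean over the 12 libraries (values past 1 in size take the end colour). The solid line parts the CD34-silent from the CD34-expressing libraries and the dotted lines part lower from higher RUNX1T1; SKNO-1 siRE-mod 2, the sixth column, is low in most rows.

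Between the CD34 sets most of the genes overlapped. All 6 CD34-silent libraries lay below all 6 CD34-expressing libraries for RRM1, TOP2A and CENPF, which is 3 of 47 beside 15.6% of all genes, and above them for 0 of 47 beside 17.5%. For the other 44 genes the CD34 sets overlapped.

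The promoters of these genes were read for what they share. RefSeq windows of 300 bases (GRCh38.p14, 250 before and 50 after the start) were matched for 36 of the 47 genes (all but AURKA, BIRC5, CCNE2, CDK2, E2F8, FOXM1, MCM4, MCM5, TPX2, TTK and UBE2C), some with several starts, 51 windows in all, and were searched on both strands for the E2F motif (TTCCCGC or TTGGCGC), the CHR element (TTTGAA), the NF-Y box (CCAAT) and the RUNX motif (TGTGGT). An NF-Y match can share bases with a CHR or E2F match, as in MKI67. The E2F motif was in 39.2% of the windows of cell cycle genes against 9.23% of all 35116 windows, the NF-Y box in 80.4% against 34.6%, the CHR in 21.6% against 15.2% and the RUNX motif in 5.88% against 13.1%. By role, 8 of 15 windows of licensing genes held the E2F motif and 0 a CHR, while 1 of 10 windows of spindle genes held the E2F motif and 6 a CHR. The 6 sequences below are the 250 bases before the start for genes among the 17 with opposite orders, shown because they pair an E2F type (MCM3, PCNA, CDC25A) with a CHR type (MKI67, PLK1) and 1 with both (CDK1). The type is that of the start shown. Another window of PCNA (chr20:5119959-5120208) held 0 E2F matches, and another of CDK1 (chr10:60778228-60778477) held both motifs. Capitals mark every match to the 4 motifs, on either strand, and a match is a string of letters and not a shown binding site. MCM3 is taken from chr6:52284743-52284992 on the minus strand, PCNA from chr20:5126623-5126872 on the minus strand, CDC25A from chr3:48188418-48188667 on the minus strand, MKI67 from chr10:128126424-128126673 on the minus strand, PLK1 from chr16:23678639-23678888 on the plus strand and CDK1 from chr10:60778081-60778330 on the plus strand.
MCM3: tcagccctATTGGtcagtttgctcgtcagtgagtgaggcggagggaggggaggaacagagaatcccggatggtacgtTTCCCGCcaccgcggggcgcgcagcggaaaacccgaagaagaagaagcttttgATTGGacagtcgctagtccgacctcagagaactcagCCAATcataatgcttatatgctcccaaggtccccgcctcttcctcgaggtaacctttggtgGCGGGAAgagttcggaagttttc
PCNA: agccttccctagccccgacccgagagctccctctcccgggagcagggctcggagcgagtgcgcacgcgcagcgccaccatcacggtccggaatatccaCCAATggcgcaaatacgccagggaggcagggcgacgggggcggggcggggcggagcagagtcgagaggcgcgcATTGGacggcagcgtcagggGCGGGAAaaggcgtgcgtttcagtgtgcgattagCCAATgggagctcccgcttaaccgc
CDC25A: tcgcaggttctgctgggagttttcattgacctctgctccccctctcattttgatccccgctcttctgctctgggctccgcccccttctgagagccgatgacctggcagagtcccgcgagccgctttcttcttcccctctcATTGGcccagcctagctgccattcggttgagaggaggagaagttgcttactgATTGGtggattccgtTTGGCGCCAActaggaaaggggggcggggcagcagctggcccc
MKI67: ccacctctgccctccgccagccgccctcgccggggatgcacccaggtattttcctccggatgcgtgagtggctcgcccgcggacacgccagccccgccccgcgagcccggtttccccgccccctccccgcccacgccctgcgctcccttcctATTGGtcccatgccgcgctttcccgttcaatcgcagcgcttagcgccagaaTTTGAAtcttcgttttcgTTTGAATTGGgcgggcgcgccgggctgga
PLK1: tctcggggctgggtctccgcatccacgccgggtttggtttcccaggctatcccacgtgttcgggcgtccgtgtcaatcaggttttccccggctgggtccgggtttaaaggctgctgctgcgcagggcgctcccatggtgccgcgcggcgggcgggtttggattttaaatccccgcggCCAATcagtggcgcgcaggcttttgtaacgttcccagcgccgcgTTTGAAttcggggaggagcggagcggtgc
CDK1: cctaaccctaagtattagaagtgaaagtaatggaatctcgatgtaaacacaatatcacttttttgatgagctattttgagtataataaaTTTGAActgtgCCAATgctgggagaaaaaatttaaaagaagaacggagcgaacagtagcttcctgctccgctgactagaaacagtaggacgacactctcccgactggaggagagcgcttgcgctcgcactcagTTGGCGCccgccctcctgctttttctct

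Among the licensing genes, 9 of 12 were higher in the lower-RUNX1T1 libraries of the CD34-silent set (21.7% of all genes). In the expressing set 6 of 12 were lower in those libraries (20.2% of all genes). GMNN, the inhibitor of CDT1 that prevents a second licensing, was at 66.5, 77.6 and 62.6 CPM, then 42.3, 45.7 and 34.0 CPM in the silent set, and at 51.9, 40.0 and 41.6 CPM, then 60.6, 68.5 and 57.4 CPM in the expressing set. It was thus highest at both ends of the RUNX1T1 range and lowest between them. These ends lie in different CD34 sets. The helicase subunit MCM4, with the smallest spread of the group, was at 325, 352 and 292 CPM, then 287, 268 and 220.4 CPM, and at 298, 219.8 and 223 CPM, then 346, 339 and 328 CPM. MCM4 was also higher at both ends of the RUNX1T1 range, except that Kasumi-1 siMM-mod 2 lay above Kasumi-1 siRE-mod 1.

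CDT1, the loading factor itself, stood apart. It was at 166, 145 and 144 CPM, then 187, 239 and 138 CPM in the CD34-silent libraries, where the lower- and higher-RUNX1T1 libraries overlapped. In the expressing libraries it was at 169.8, 86.3 and 88.2 CPM, then 131, 106 and 97.7 CPM. Its 4 highest values were all in Kasumi-1 libraries, of either label, and its 4 lowest in SKNO-1 libraries. The lines overlapped, at 131 to 239 CPM in Kasumi-1 and 86.3 to 145 CPM in SKNO-1. Apart from Kasumi-1 siMM-mod 2, every CD34-expressing library also lay below every silent one. The parts of line and CD34 set were not tested.

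MCM7 ran from 328 to 363 CPM against 203 to 276 CPM in the silent set, and MCM3 from 227 to 273 CPM against 324 to 334 CPM in the expressing set. The origin recognition subunit ORC1 (46.7 to 79.7 CPM) and the loader CDC6 (49.6 to 101 CPM) were higher in the lower-RUNX1T1 silent libraries. MCM2, whose exons share 23.6% of their bases with a transcript on the opposite strand, overlapped in both sets, at 143 to 175 against 139 to 188 CPM and 124 to 201 against 186 to 230.0 CPM. Whether reads were counted by strand is not given in the sources used here, so reads of such overlaps cannot be told apart.

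In nucleotide and DNA synthesis the ribonucleotide reductase subunits parted from each other. RRM1, the large subunit (chromosome 11, 4094707 to 4138932, plus strand), was at 83.2, 102 and 72.4 CPM, then 86.5, 84.8 and 76.7 CPM in the CD34-silent libraries and at 179, 145 and 145 CPM, then 201, 209 and 205 CPM in the expressing ones. Every CD34-expressing library was above every CD34-silent one, with no order by RUNX1T1 in the silent set. RRM2, the small subunit made in S phase, was at 287, 342 and 259 CPM, then 172, 181 and 149 CPM, and at 157, 158 and 149 CPM, then 207, 241 and 217 CPM. RRM2 was highest in the 3 libraries with the least RUNX1T1 and overlapped between the CD34 sets.

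PCNA, the sliding clamp of the replicative polymerases (chromosome 20, 5114953 to 5126626, minus strand), was at 278, 313 and 243 CPM, then 188, 212 and 154 CPM, and at 183, 133 and 138 CPM, then 217, 228 and 190.5 CPM. PCNA, too, was highest in the 3 libraries with the least RUNX1T1. Thymidine kinase TK1, which salvages thymidine, was at 129.8, 129 and 111 CPM, then 122, 143 and 92.6 CPM, and at 129, 78.0 and 77.0 CPM, then 132, 137 and 115 CPM. TK1 overlapped in the silent set, as did thymidylate synthase TYMS at 86.9 to 114 against 61.7 to 96.6 CPM. TYMS shares 47.5% of its exonic bases with ENOSF1 and TYMSOS on the opposite strand.

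Of the cyclins and their kinases, 6 of 8 were higher in the lower-RUNX1T1 silent libraries (21.7% of all genes) and 7 of 8 lower in the lower-RUNX1T1 expressing libraries (20.2%). CDC25A, the phosphatase that releases CDK2 and CDK1 from inhibition, was at 93.2, 100.5 and 83.8 CPM, then 53.9, 44.8 and 36.5 CPM, and at 78.9, 68.7 and 70.5 CPM, then 88.1, 86.0 and 86.8 CPM. Its 3 lowest values were the silent libraries with higher RUNX1T1. CCNE2, a cyclin of the G1/S transition, was at 35.5, 40.9 and 29.6 CPM, then 18.5, 17.9 and 15.4 CPM, and at 15.1, 17.0 and 18.2 CPM, then 23.9, 25.7 and 25.0 CPM. CCNE2 shares 37.1% of its exonic bases with INTS8 and AC087752.4 on the opposite strand.

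CCNE1, its paralog, spread less, at 23.6, 25.0 and 22.0 CPM, then 23.6, 20.5 and 16.4 CPM, and at 24.1, 20.1 and 21.3 CPM, then 31.5, 30.3 and 28.4 CPM. The silent libraries overlapped for CCNE1, while in the expressing set the libraries with higher RUNX1T1 were all above the rest. CDK1, the kinase of mitotic entry (chromosome 10, 60778331 to 60794852, plus strand), was at 119, 141 and 109 CPM, then 99.0, 106 and 87.1 CPM, and at 130.3, 123 and 126 CPM, then 184, 214 and 193 CPM. CDK1 was highest in the 3 libraries with the most RUNX1T1, and lowest in SKNO-1 siRE-mod 2. CDK2, the S-phase kinase, alone was higher at lower RUNX1T1 in both sets, at 36.9 to 44.0 against 20.9 to 25.9 CPM and 29.3 to 33.6 against 23.7 to 26.2 CPM. Its exons share 16.8% of their bases with genes on the opposite strand.

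All 4 transcription factors were higher in the lower-RUNX1T1 silent libraries (21.7% of all genes), and all 4 overlapped in the expressing set. Their summed level was 186, 186 and 179 CPM, then 132, 115 and 89.8 CPM, and was 112, 102 and 97.4 CPM, then 117, 106 and 109 CPM in the expressing libraries. The 3 libraries with the least RUNX1T1 were thus above the other 9.

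E2F2, an activator of S-phase genes, was at 21.6, 19.5 and 21.4 CPM, then 11.3, 9.76 and 6.94 CPM, and at 13.3, 10.0 and 10.6 CPM, then 16.5, 14.3 and 13.1 CPM. Its paralog E2F1 was at 42.2, 36.5 and 37.1 CPM, then 27.8, 25.3 and 19.9 CPM, and at 25.4, 22.7 and 21.5 CPM, then 29.5, 25.2 and 25.5 CPM. FOXM1, the driver of mitotic genes, was at 97.7, 97.2 and 92.3 CPM, then 70.9, 59.9 and 44.2 CPM, and at 57.3, 48.0 and 44.2 CPM, then 53.8, 51.0 and 53.2 CPM. In none of these 3 did a library with more RUNX1T1 reach the level of the 3 lowest. FOXM1 shares 15.9% of its exonic bases with ITFG2 on the opposite strand. E2F8, a repressor of E2F targets, ran from 24.9 to 32.9 against 18.8 to 22.0 CPM in the silent set and from 15.1 to 21.1 CPM in the expressing set.

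**Figure D2:**
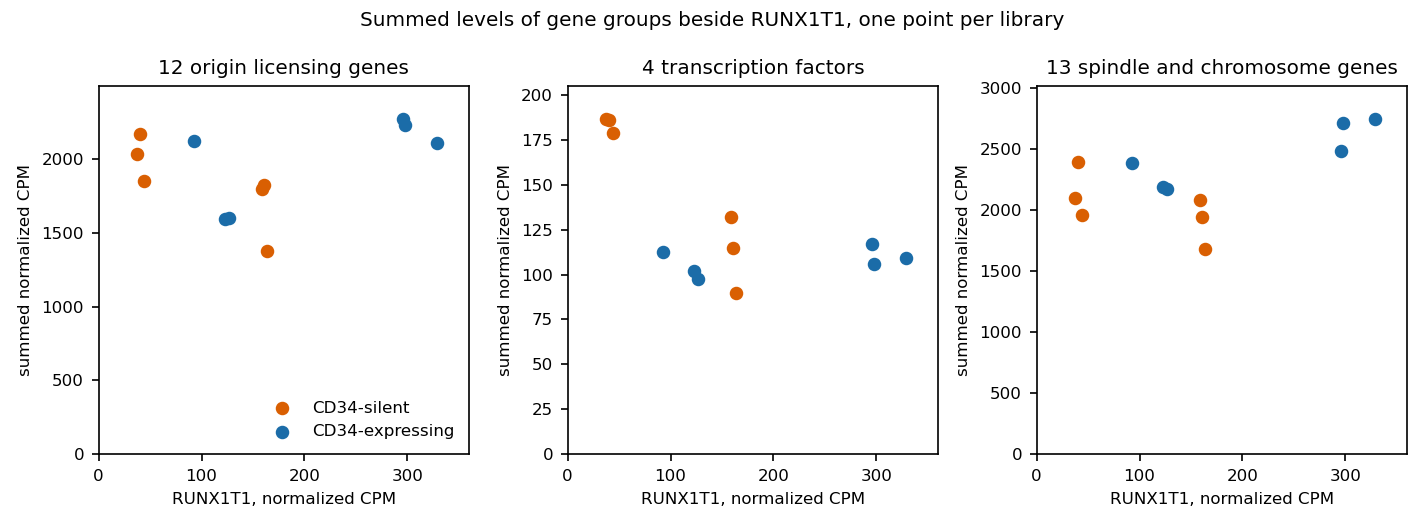
Each point is a library, with normalized CPM of RUNX1T1 on the x axis and the summed normalized CPM of the gene group on the y axis, coloured by CD34 set. The transcription factors are highest, at 179 to 186 CPM, in the 3 libraries with the least RUNX1T1, and the spindle genes are highest, at 2483 to 2745 CPM, in the 3 with the most. The former libraries are all CD34-silent and the latter all CD34-expressing.

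Both genes of the replication checkpoint and chromatin group followed opposite orders (3.89% of all genes). UHRF1, which brings maintenance DNA methylation to replicated DNA, was at 177, 179.8 and 159 CPM, then 109.6, 100.1 and 76.8 CPM, and at 185, 129 and 124 CPM, then 251, 224 and 227 CPM. It had the widest range of the 47 genes, with its 3 highest values at the most RUNX1T1. CHEK1, the checkpoint kinase activated by stalled forks, was at 131, 158 and 127 CPM, then 99.1, 92.4 and 86.4 CPM, and at 80.8, 74.3 and 77.7 CPM, then 86.7, 93.4 and 90.3 CPM. CHEK1 had its 3 highest values at the least RUNX1T1, so these genes differed in which end of the range was higher.

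The spindle, centromere and chromosome genes were divided. In the lower-RUNX1T1 silent libraries 6 of 13 were higher (21.7% of all genes), and 9 of 13 were lower in the lower-RUNX1T1 expressing ones (20.2%). MKI67, the Ki-67 protein that coats mitotic chromosomes (chromosome 10, 128096659 to 128126423, minus strand), was at 477, 525 and 449.9 CPM, then 412, 349.5 and 300.3 CPM, and at 537, 493 and 491 CPM, then 557, 559 and 633 CPM. TOP2A, the topoisomerase that untangles chromosomes (chromosome 17, 40388525 to 40417896, minus strand), was at 539, 660.1 and 489 CPM, then 649.5, 613 and 559 CPM, and at 728, 684 and 675 CPM, then 786, 897 and 884 CPM. For MKI67 the lower-RUNX1T1 silent libraries were all above the other 3 silent ones, whereas for TOP2A they overlapped, and for both the 3 highest libraries were those with the most RUNX1T1.

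CENPA, the centromeric histone, was at 23.0, 20.7 and 20.8 CPM, then 16.6, 14.6 and 8.73 CPM, and at 22.2, 16.7 and 17.1 CPM, then 20.9, 22.4 and 19.9 CPM. BIRC5 (survivin), of the chromosomal passenger complex, was at 134, 142 and 122 CPM, then 106, 126 and 76.7 CPM, and at 93.7, 63.4 and 64.3 CPM, then 98.8, 123 and 94.0 CPM. In BIRC5 1 silent library with higher RUNX1T1, Kasumi-1 siMM-mod 3, reached into the range of the lower ones. TPX2, the activator of Aurora A on the spindle and the steadiest of the 47 genes, was at 187, 215 and 175 CPM, then 195, 174 and 154 CPM, and at 180.0, 158 and 155 CPM, then 204, 215 and 217 CPM. Of the kinases, AURKA ran from 63.7 to 80.0 against 49.1 to 63.3 CPM and PLK1 from 48.7 to 49.9 against 27.0 to 44.0 CPM in the silent set. PLK1 shares 12.8% of its exonic bases with genes on the opposite strand. The kinetochore motor CENPE and its partner CENPF overlapped in the silent set, at 89.6 to 116 CPM and 159 to 227 CPM.

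All 3 genes of the anaphase-promoting complex group were higher in the lower-RUNX1T1 silent libraries (21.7% of all genes) and overlapped in the expressing set. CDC20, the activator of the complex, was at 113, 111 and 103 CPM, then 74.5, 73.3 and 49.0 CPM, and at 107, 67.5 and 68.7 CPM, then 107, 109.9 and 99.4 CPM. UBE2C, its ubiquitin-conjugating enzyme, was at 129, 124 and 114 CPM, then 84.5, 104 and 64.9 CPM, and at 126, 78.4 and 79.2 CPM, then 127, 132 and 116 CPM. PTTG1 (securin), its substrate, was at 117, 116 and 106 CPM, then 77.6, 98.5 and 58.5 CPM, and at 94.6, 64.8 and 61.9 CPM, then 86.5, 90.0 and 81.2 CPM. In normalized CPM the overlap in the expressing set came, in all 3, from Kasumi-1 siMM-mod 2. That library lay with or above the libraries of higher RUNX1T1. Its TMM factor was 0.854, as in SKNO-1 siMM-mod 2, against 0.939 to 1.06 in the other expressing libraries. As a share of unscaled counts the cell cycle genes summed to 0.556% in Kasumi-1 siMM-mod 2. This was near SKNO-1 siRE-mod 1 and SKNO-1 siMM-mod 3 (0.554% and 0.566%) and below the higher-RUNX1T1 libraries (0.629% to 0.669%). The part of the scaling in the overlap of these 3 genes was not tested. Near-identical copies of securin held few reads, with PTTG2 at most at 0.125 CPM and PTTG3P at most at 1.11 CPM.

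Compared per length, in the deposited FPKM, PCNA had the highest median level of the 47 genes at 140.1 FPKM (98.0 to 231 over the 12 libraries). TOP2A followed at 109 FPKM (88.2 to 130.3) and MCM7 at 86.8 FPKM (46.5 to 94.5). The lowest were E2F2 at 2.25 FPKM (1.28 to 4.66), CCNE2 at 4.80 FPKM (2.93 to 9.65) and E2F8 at 4.93 FPKM (3.13 to 8.25). PCNA and TOP2A overlapped in range, as did CCNE2 and E2F8, so neighbours in this order did not separate beyond their spread over libraries.

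The siRNA label was then tested, the question of the design being whether RNA of these genes differed after siRE-mod. With edgeR's quasi-likelihood test, 0 of the 47 genes passed an adjusted p of 0.05 within Kasumi-1, 0 within SKNO-1 and 0 when the lines were compared, where 0% of 13608, 13628 and 15863 genes passed. At an unadjusted p under 0.05 there were 4 of 47 in Kasumi-1 (17.9% of all genes), 1 of 47 in SKNO-1 (10.7%) and 0 for the difference (0.668%). DESeq2 called 2 of 47 in Kasumi-1, FOXM1 and E2F8, both higher (8.55% of all genes), 0 in SKNO-1 (2.73%) and 0 for the difference (0.801%). Wherever a cell cycle gene was called, the share called was smaller than that over all genes. The count within a line rested on single libraries. Without Kasumi-1 siMM-mod 3, edgeR called 5 of the 47 in Kasumi-1 (RRM1, MCM3 and CCNB2 lower, FOXM1 and E2F8 higher) beside 32.2% of all genes. Without SKNO-1 siRE-mod 1 it called RRM1, lower, in SKNO-1, beside 19.3% of all genes.

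The median log2 fold change of the 47 genes, siRE-mod over siMM-mod by label, was −0.0025 in Kasumi-1 against 0.02 for all genes, with 23 positive and 24 negative. In SKNO-1 it was −0.16 against 0.03, with 14 positive and 33 negative. The sign changed on leaving out 1 library for 18 of the 47 genes in Kasumi-1 and for 21 in SKNO-1.

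RRM1 had the lowest fold change in both lines. Its level was 155 ± 61.7 CPM (SD, n = 3) in Kasumi-1 siMM-mod and 80.7 ± 7.40 CPM in siRE-mod, a log2 fold change of −0.94 ± 0.33 (SE; edgeR adjusted p = 0.255), and −1.23 to −0.71 with each library left out. Without siMM-mod 3 it was −1.23 ± 0.13 (edgeR adjusted p = 0.00162). In SKNO-1 it was 186 ± 35.8 CPM and 108 ± 34.5 CPM, a log2 fold change of −0.79 ± 0.28 (edgeR adjusted p = 0.466), and without siRE-mod 1 it was −1.09 ± 0.23 (edgeR adjusted p = 0.0216). In Kasumi-1 the control library with low CD34, siMM-mod 3, lay at 84.8 CPM among the siRE-mod libraries, and in SKNO-1 the siRE-mod library that expressed CD34 lay at 145 CPM beside the control siMM-mod 3. RRM1 thus moved with CD34 in libraries of either label, and the part of the CD34 sets in its fold changes was not tested.

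FOXM1 had the highest fold change in Kasumi-1, at 57.0 ± 3.07 CPM in siMM-mod and 87.0 ± 14.2 CPM in siRE-mod, a log2 fold change of 0.61 ± 0.15 (edgeR adjusted p = 0.252), and without siMM-mod 3 it was 0.65 ± 0.17 (edgeR adjusted p = 0.0341). In SKNO-1 it was 49.5 ± 4.68 CPM and 63.1 ± 29.6 CPM, a log2 fold change of 0.34 ± 0.32 (edgeR adjusted p = 0.712). The spread in SKNO-1 siRE-mod ran from 44.2 to 97.2 CPM with the highest value in the library with the least RUNX1T1. CHEK1 in Kasumi-1 was at 86.6 ± 5.80 CPM and 119 ± 17.3 CPM, a log2 fold change of 0.46 ± 0.15, and E2F8, named after its values were seen, was at 17.6 ± 1.71 CPM and 25.0 ± 3.09 CPM, a log2 fold change of 0.51 ± 0.16 (edgeR adjusted p = 0.252 for both). Without siMM-mod 3 the log2 fold change of E2F8 was 0.59 ± 0.16 (edgeR adjusted p = 0.0374).

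MKI67 was at 481 ± 115 CPM in Kasumi-1 siMM-mod and 446 ± 32.4 CPM in siRE-mod, a log2 fold change of −0.11 ± 0.22 (edgeR adjusted p = 0.792), and in SKNO-1 at 561 ± 71.1 and 439 ± 121 CPM, a log2 fold change of −0.36 ± 0.25 (adjusted p = 0.612). For CDK1 the log2 fold changes were −0.36 ± 0.23 and −0.61 ± 0.27 (edgeR adjusted p = 0.41 and 0.472), for TOP2A −0.34 ± 0.17 and −0.37 ± 0.19 (0.346 and 0.509) and for PCNA 0.21 ± 0.18 and 0.10 ± 0.35 (0.52 and 0.944), Kasumi-1 first. The labelled groups did not overlap for 4 genes higher in Kasumi-1 siRE-mod (CHEK1, E2F8, FOXM1 and PLK1, beside 9.71% of all genes), 1 lower (BUB1, 11.9%), 0 higher in SKNO-1 (5.62%) and 2 lower (CENPE and RRM1, 6.46%).

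**Figure D3:**
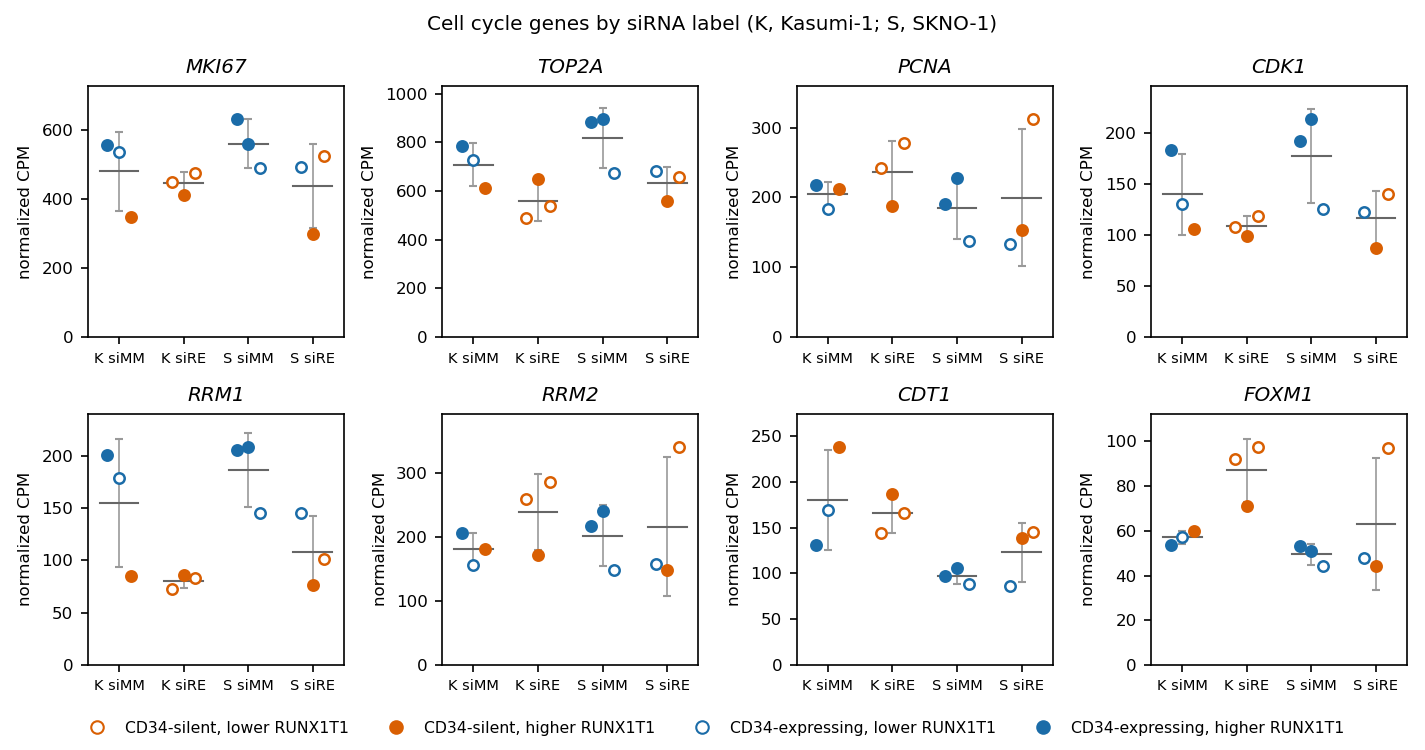
Normalized CPM of 8 genes on the y axis by line and siRNA label on the x axis, a point per library, with the mean (line) and SD (bar) of 3 libraries. Colour gives the CD34 set and open points the lower-RUNX1T1 libraries; libraries of 1 label can lie far apart, as for RRM2 in SKNO-1 siRE-mod, which spreads from 149 to 342 CPM.

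**Figure D4:**
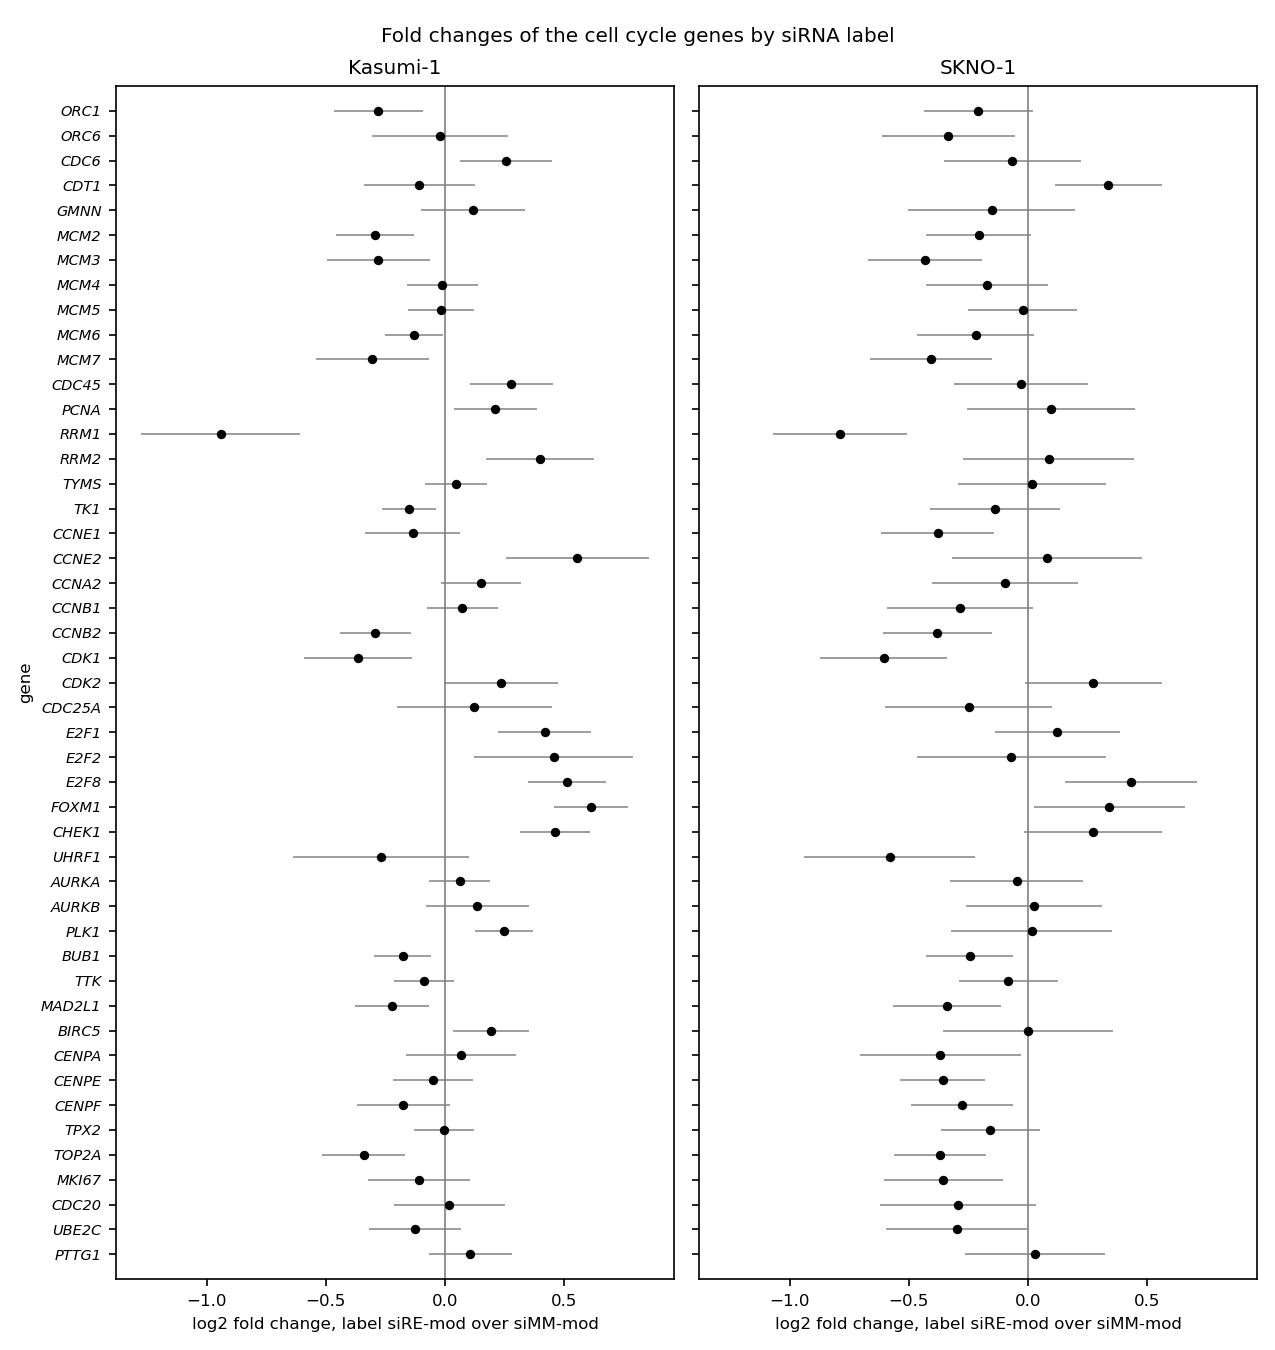
Log2 fold change by label (x axis) of each of the 47 genes (y axis), a point with its SE from the quasi-likelihood fit, in Kasumi-1 and SKNO-1. The points lie from −0.94 (RRM1) to 0.61 (FOXM1) in Kasumi-1 and from −0.79 (RRM1) to 0.43 (E2F8) in SKNO-1, and 0 of them passed the adjusted threshold with all libraries in the fit.

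Further genes of the same pathways were counted in the same way. Of 31 other replication genes, 21 were higher and 2 lower in the lower-RUNX1T1 silent libraries (21.7% and 21.6% of all genes), and 19 were lower and 0 higher in the expressing ones (20.2% and 18%). Of 34 other mitosis genes, 20 were higher and 0 lower, then 16 lower and 2 higher, and of 15 RB, E2F and DREAM regulators 9 were higher and 3 lower, then 6 lower and 1 higher. The 3 regulators that were lower in the silent set, RB1, RBL2 and TFDP2, are a share near that of all genes. By label edgeR called 0 genes of these lists, as it did over all genes. In Kasumi-1 DESeq2 called 2 of 31 replication genes (ORC2 and PRIM1, lower), 1 of 34 mitosis genes (MELK, higher) and 1 of 15 regulators (E2F5, lower). DESeq2 called 8.55% of all genes there. In SKNO-1 it called 0 genes of these lists, beside 2.73% of all genes.

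Between the CD34 sets, all 6 silent libraries were higher for 3 of the 31 replication, 3 of the 34 mitosis and 0 of the 15 regulator genes (17.5% of all genes), and lower for 5, 1 and 1 (15.6%), shares no larger than, or near, those of all genes. RFC3, of the clamp loader, ran from 82.9 to 99.6 CPM and 62.1 to 67.3 CPM in the silent set and from 28.0 to 31.9 CPM and 36.6 to 40.3 CPM in the expressing set, lower- before higher-RUNX1T1 libraries. MCM10, which helps to start the helicase, ran the other way at 76.3 to 99.4, 44.1 to 54.6, 109 to 116 and 146 to 159 CPM in the same order. MELK, a mitotic kinase, was at 104 to 129.9, 52.2 to 66.5, 38.7 to 42.4 and 48.0 to 54.4 CPM, and so highest in the 3 libraries with the least RUNX1T1. MYBL2 (B-MYB) was at 189 to 227, 93.9 to 156, 132 to 201 and 199 to 219 CPM, with the silent libraries apart and the expressing ones overlapping. E2F7, a repressor like E2F8, was lowest in the silent libraries with higher RUNX1T1, at 5.48 to 7.53 CPM, and ran from 13.7 to 24.9 CPM in the other 9. E2F5, also a repressor, was at 0.430 to 1.07 CPM in the silent and 7.06 to 12.7 CPM in the expressing libraries.

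The inhibitors of the cycle were read beside them. The highest library exceeded the lowest by 2.27-fold (FZR1) to 3.31-fold (BTG1) in 6 of the 13 that were tested, near or within the range of the 47 genes, and by more in the other 7, of which several lay near 0.1 CPM in some libraries. Of 13, 7 were higher in the lower-RUNX1T1 silent libraries (BTG1, BTG2, CDKN1A, CDKN2D, FZR1, PKMYT1 and WEE1, beside 21.7% of all genes) and 0 lower (21.6%). In the expressing set 4 were higher (BTG1, BTG2, CDKN2C and GADD45A, beside 18% of all genes) and 3 lower (CDKN1A, CDKN1C and WEE1, beside 20.2%), the latter a share near that of all genes. By label edgeR called 0 of them in either line. DESeq2 called 2 of the 12 that passed the filter in Kasumi-1, CDKN2D (higher) and CDKN1B (lower), beside 8.55% of all genes. In SKNO-1 it called 0 of 12, beside 2.73% of all genes. BTG2, an antiproliferative p53 target, was at 53.3, 61.9 and 49.2 CPM, then 8.35, 9.02 and 8.08 CPM, and at 1.18, 0.950 and 1.30 CPM, then 0.0678, 0.0721 and 0.0570 CPM. The 4 sets of 3 did not overlap, and the lower-RUNX1T1 libraries were higher in both CD34 sets.

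CDKN1A (p21), the general kinase inhibitor, was at 7.94, 6.51 and 6.68 CPM, then 2.99, 3.25 and 1.45 CPM, and at 0.191, 0.0742 and 0.0624 CPM, then 1.82, 2.09 and 1.28 CPM. CDKN1A thus followed the same pair of opposite orders as the 17 cell cycle genes, at low levels. CDKN2D (p19), an inhibitor of CDK4 and CDK6, was at 7.37, 5.19 and 6.31 CPM, then 1.47, 1.54 and 0.913 CPM in the silent and 0.584 to 1.46 CPM in the expressing libraries.

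CDKN1B (p27), which holds CDK2 in check, was at 32.6 to 44.8 CPM in the CD34-silent and 95.9 to 121 CPM in the expressing libraries. WEE1, the kinase that restrains CDK1, was lower in every silent library too, at 28.0 to 41.5 against 64.5 to 76.4 CPM. These are 2 of the 13 inhibitors, a share near that of all genes (15.6%). CDKN1C, CDKN2A and CDKN2B were higher in all CD34-silent libraries, at 3.07 to 5.25 against 0.0742 to 0.596 CPM, 8.22 to 22.7 against 1.31 to 2.63 CPM and 0.649 to 1.37 against 0.0255 to 0.327 CPM. With BTG2, 4 of the 13 were higher in every silent library, beside 17.5% of all genes. CDKN2A shares 15.4% of its exonic bases with CDKN2B-AS1 and PKMYT1 32.0% with PAQR4 and KREMEN2, both on the opposite strand, and BTG1 14.9% with genes on either strand. BTG1 was at 39.2 to 40.9 CPM in the lower-RUNX1T1 expressing libraries and at 12.4 to 21.6 CPM in all others, GADD45A at 12.9 to 33.0 CPM, CDKN2C at 44.1 to 112 CPM, FZR1 at 13.1 to 29.8 CPM and PKMYT1 at 5.87 to 19.2 CPM.

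**Figure D5:**
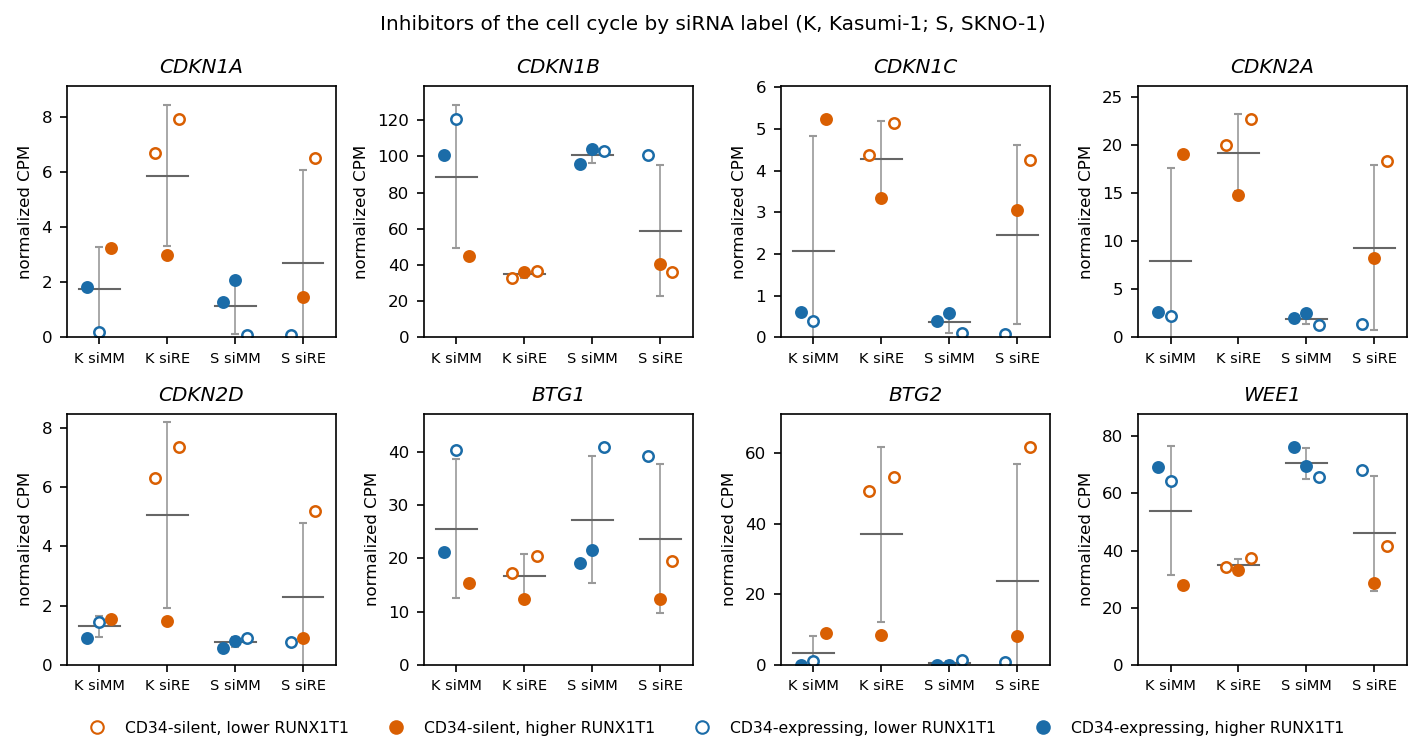
Normalized CPM of 8 inhibitors of the cell cycle on the y axis by line and siRNA label on the x axis, a point per library, with mean and SD of 3 libraries and the colours of the plot of 8 cell cycle genes; SD bars that pass 0 are clipped there. BTG2 is at 49.2 to 61.9 CPM in the 3 libraries with the least RUNX1T1 and under 10 CPM in the other 9.

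In the 4 libraries of Kasumi-1 cells from treated mice, 46 of the 47 genes were listed, each at 0 reads. Only 0.020% to 0.0335% of the 24503879 to 30687062 reads of a library lay on genes there, so no level of the cell cycle genes could be read in vivo.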

How the data were processed

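Per the labels and the study's methods, the authors trimmed reads with Trim Galore 0.6.5, aligned them to GRCh38 with STAR 2.7.10a and counted them over exons. The headers of the deposited tables name Rsubread 1.32.4 under R 3.5.1. The deposited in vitro tables hold raw counts per gene with CPM and FPKM made from them. CPM as deposited served as an alternative scale and to set the CD34 limit (5 CPM), and FPKM to compare genes. The deposited in vivo tables hold raw counts in 4 libraries.

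The filter kept genes that reached 600 reads over the libraries of a fit. edgeR 4.0.16 in R 4.3.3 normalized the counts (TMM, factors 0.854 to 1.19) and its robust quasi-likelihood test compared labels within each line and the effect between lines, with Benjamini-Hochberg adjusted p-values and a threshold of 0.05. No exact permutation test was run, as its smallest two-sided p for 3 against 3 libraries is 0.1. Alternatives were DESeq2 1.42.0, its size factors, other filters, a replicate block, all 12 libraries in 1 fit and each library left out. On simulated counts with a dispersion of 0.02, 194, 195 and 179 of 200 changed genes came back in the Kasumi-1, SKNO-1 and interaction fits, and false calls numbered 9, 12 and 6 among 13608, 13628 and 15863 genes. Simulated libraries of a group shared the same mean for each gene, whereas RUNX1T1 ran from 92.7 to 296 CPM within Kasumi-1 siMM-mod. The simulation therefore does not measure how readily a change is found at the spread of these libraries.

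The cell cycle genes, the pathway lists and the tests were chosen with earlier results of these data known. Values in every library are given for MKI67, PCNA, TOP2A, CDK1 and, in each role group, the 2 genes with the widest and the 1 with the narrowest range over the 12 libraries. RRM2, MCM7, MCM3, ORC1, CDC6, MCM2, TYMS, CDK2, E2F8, AURKA, PLK1, CENPE and CENPF were added after their values were seen. Of the pathway lists, KIF23 is not analysed here. Tables were made with Python 3.11.15, numpy 2.4.6 and pandas 2.3.3, and figures with matplotlib 3.10.9.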

Additional observations from a re-analysis of the deposited data

How the results depend on the processing

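Counts over all genes depended most on the tool and on single libraries. DESeq2 called 1163 genes in Kasumi-1 (214 higher and 949 lower), 372 in SKNO-1 (354 and 18) and 127 for the difference between the lines, where edgeR called 0, and 2 of the cell cycle genes in Kasumi-1. With each library left out, edgeR called 0 to 4250 genes in Kasumi-1 and 0 to 2535 in SKNO-1, with calls only without Kasumi-1 siMM-mod 3 and without SKNO-1 siRE-mod 1. Of the cell cycle genes 0 to 5 were then called in Kasumi-1 (2 higher and 3 lower) and 0 to 1 in SKNO-1 (RRM1). Log2 ranges were followed for the median of the cell cycle genes and for MKI67, PCNA, TOP2A, CDK1, RRM1, FOXM1, CHEK1 and E2F8. In Kasumi-1 those of the median (−0.094 to 0.096) and of MKI67 (−0.29 to 0.014) crossed 0. In SKNO-1 those of PCNA (−0.33 to 0.30), FOXM1 (−0.068 to 0.53) and CHEK1 (−0.084 to 0.45) did. The order counts ranged from 32 to 36 in the CD34-silent and from 27 to 41 in the CD34-expressing set, and with the deposited CPM they were 38 (31.1% of all genes) and 26 (17.1%). These order counts were recomputed with settings chosen after seeing the data.

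Same-numbered deviations correlated at −0.0070, −0.32 and −0.071 in Kasumi-1 and at −0.23, 0.027 and −0.31 in SKNO-1, so replicate numbers showed no pairing. Kasumi-1 siMM-mod and SKNO-1 siRE-mod each held libraries of both CD34 sets, so these values cannot show whether cultures were paired. With the replicate number as a block, 0 genes and 0 cell cycle genes were called in any of the 3 fits, and the median log2 fold change of the cell cycle genes was 0.001 in Kasumi-1, −0.19 in SKNO-1 and −0.18 between the lines. How depth, at least 60559466 counts a library, bears on the calls was not tested.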
